A study of Gallus gallus with 20 samples.

Results

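Long non-coding RNA genes were measured in 1 RNA-seq library of adult chicken (Gallus gallus) kidney. A gene was taken as a member when every transcript listed for it carried a RefSeq non-coding accession (XR_ or NR_) and its longest transcript had 300 bases or more. This gave 4592 of 19649 named genes, with 7427 transcripts. They were set beside the 14027 coding genes of the same minimum length, which are genes with at least 1 protein-coding transcript (NM_ or XM_).

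The series concerns piRNAs of the kidney and holds 20 chicken samples, of which 19 are small RNA libraries that were not used here. The kidney library was made from total RNA by a TruSeq protocol, and its labels give the age as adult and no sex, strain or treatment. It is a single library, so there was no replicate check, no test was possible, and every comparison below is between genes of the same library. Levels are in TPM, which scales reads by transcript length and by library total, summed over the transcripts of a gene, and all intervals are 95% intervals.

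Long non-coding RNAs are transcripts with no recognised long open reading frame. Like mRNAs, many are transcribed by RNA polymerase II, spliced and polyadenylated, but they are often present at few copies and in few cell types. Some act beside their own site of transcription, on a neighbouring or overlapping gene, some act as scaffolds for proteins elsewhere in the nucleus or cytoplasm, and for most in the chicken no function is known. Genes transcribed across a coding gene on the opposite strand are called antisense.

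The library held 21832272 estimated reads, and kidney markers were present. Of 6 listed proximal tubule genes, 4 were measured, at 998 to 4055 TPM. Of 4 listed podocyte genes, 2 were measured, at 39.3 to 76.9 TPM. Loop and distal markers, 3 of 3, ranged from 64.3 to 366 TPM. Markers of other cell types were also measured. Erythroid genes, 3 of 3, reached 197 to 486 TPM, and leukocyte genes, 3 of 3, reached 13.8 to 173 TPM. The highest leukocyte marker, CD74, is itself a member by its accession, so its level is that of a listed non-coding transcript. For hepatocytes 1 of 3 markers was detected, with a range of 0 to 8.57 TPM, and for the adrenal gland 1 of 3, with a range of 0 to 4.68 TPM. Of 4 listed testis and gonad markers 2 were measured, at 0.529 and 2.68 TPM, and 1 was detected. In bulk tissue fewer cells that carry an RNA and less RNA per cell cannot be told apart.

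Most members were at or near 0 in this kidney. Detection required a level of at least 1 TPM and a minimum of 3 reads, and 663 members met this, 14.4% (exact Clopper-Pearson interval 13.4 to 15.5). By the same rule 66.9% of coding genes were detected (66.1 to 67.7), and 53.9% of all 18619 named genes of this length. The difference between coding genes and members was 52.4 percentage points (51.1 to 53.7). These intervals treat genes as a sample, and genes are not replicates. The median member stood at 0.0359 TPM (order-statistic interval 0.0303 to 0.0413) and the median coding gene at 4.90 TPM (4.66 to 5.17). Only 224 members, 4.88%, lay above the coding median.

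**Figure D1:**
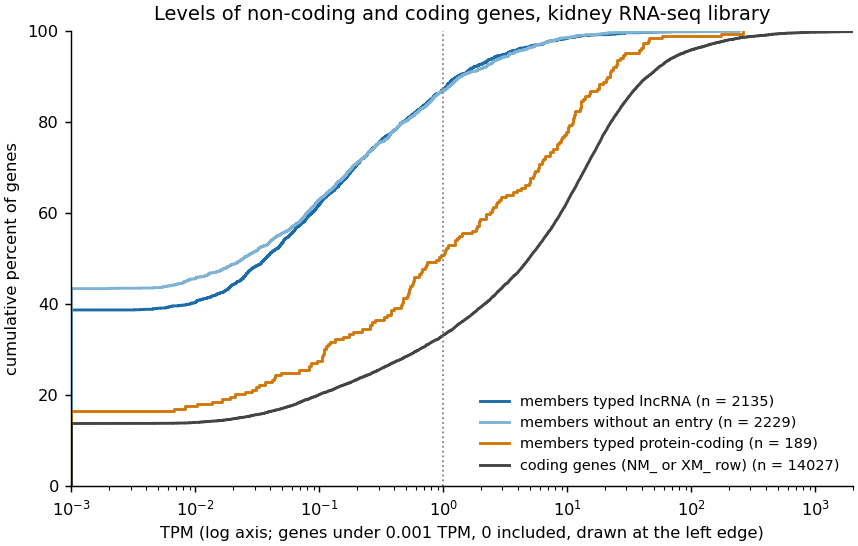
Cumulative percent of genes (vertical axis) at or below each level in TPM (horizontal log axis), with 1 line for members that the RefSeq gene table types as lncRNA (n = 2135), for members without an entry there (2229), for members it types as protein-coding (189) and for coding genes (14027). The lncRNA and no-entry lines lie close together to the left, with medians of 0.0370 and 0.0244 TPM, the coding line lies to the right at 4.90 TPM, and the members typed protein-coding lie between at 0.930 TPM.

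The range of member levels was wide. No read was assigned to 1836 members (40.0%), and 957 had reads but stood under 0.1 TPM. Another 1130 stood between 0.1 and 1 TPM, 558 between 1 and 10 TPM, 102 between 10 and 100 TPM and 9 at 100 TPM or more. Among coding genes 13.7% had no read and 37.5% reached 10 TPM, against 2.42% of members. The depth would have shown most members at the detection level: for 1749 of the members without reads (95.3%), 3 reads on the shortest transcript would have amounted to less than 1 TPM, with a median of 0.147 TPM. Of the library's reads, 25.9% lay on 34512 assembled transcripts without a gene name, so reads of a member may also lie there and its level may be too low. Of the 79570 rows, 43168 had a gene name, and rows of neither kind also held reads.

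The name of the set held for part of its genes. A later RefSeq gene table (assembly GRCg7b), used here for names and types, held 2363 of the members. It typed 2135 of them as lncRNA, 189 as protein-coding and 39 as another type, among them 24 miscellaneous RNAs, 5 pseudogenes, 5 transcribed pseudogenes, 2 rRNAs and 1 snoRNA. The other 2229 members had no entry in it. Members typed lncRNA were detected in 12.6% of cases (270 of 2135; 11.3 to 14.1) and those without an entry in 13.0% (290 of 2229; 11.6 to 14.5). Members typed protein-coding were detected in 49.2% (93 of 189; 41.9 to 56.6). They made up 4.12% of members but held 27.1% of member reads, while the lncRNA-typed genes held 35.1%.

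Detection differed between genes with and without a given name as well as between accession classes. Of the 4483 members known only by a LOC number, 13.0% were detected (12.0 to 14.0), and of the 2101 coding genes known only by a LOC number, 25.6% (23.7 to 27.5). Of the 109 members with another symbol, 75.2% were detected (66.0 to 83.0), and of the 11926 coding genes with one, 74.2% (73.4 to 74.9). The median levels were 0.0320 and 0.0673 TPM for the LOC genes and 6.62 and 7.04 TPM for the named genes, members first. Most of the named members, 79 of 109, were typed protein-coding in the gene table. The difference between all coding genes and all members was 52.4 percentage points. It was 11.1 points when all members, the 109 with another symbol included, were set against coding genes with a LOC number alone. This is not the difference between the shares of the LOC genes given above.

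Read mass was concentrated in few members. The 10 members with most reads held 20.6% of the 278895 member reads, and the 100 with most reads held 62.0%. The corresponding shares of the coding genes' reads were 11.8% and 26.1%. A fixed number of genes is a larger part of the 4592 members than of the 14027 coding genes, so these shares are not like for like. By TPM, the 10 highest members held 38.0% of member TPM and the 10 highest coding genes 23.7% of theirs. Members together took 1.28% of all reads in the library and 0.699% of TPM, against 63.0% and 41.5% for coding genes. The member with most reads was LOC112533599, typed rRNA, with 22472 reads or 8.06% of member reads. Without it, the 10 leading members held 14.8%. Among the 2135 members typed lncRNA alone, a smaller set again, the 10 with most reads held 27.7% of that group's reads.

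Members of several types stood at the very top. LOC112531645, a transcript of 321 bases typed snoRNA, stood highest at 1042 TPM (exact Poisson interval 998 to 1088; 2097 reads). Small nucleolar RNAs guide the chemical modification of ribosomal and other RNAs. It carried 14.9% of member TPM but 0.752% of member reads, since TPM divides by a short effective length. LOC112533599, the rRNA, followed at 335 TPM (331 to 339). LOC112533096, a non-coding RNA of 324 bases, stood at 115 TPM (101 to 131). LOC112531458 and LOC112532687, short genes of 449 and 370 bases without an entry, stood at 245.5 and 162 TPM. Of the 9 members at 100 TPM or more, 2 were typed lncRNA, 2 protein-coding and 3 another type, and 2 had no entry. Genes typed lncRNA made up 46.5% of all members. Among the 20 members with the highest TPM, 6 were typed lncRNA, 6 protein-coding and 3 another type, and 5 had no entry. Genes such as rRNAs and snoRNAs can have near-identical copies among which reads are split, so their levels are uncertain.

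Named members typed protein-coding formed the next group. They are coding genes for which only a non-coding transcript was listed, and 68 of 79 with a symbol and 25 of 110 with a LOC number were detected, against 74.2% and 25.6% of the coding genes of each kind. ATP5G3, a subunit c gene of the mitochondrial ATP synthase, stood at 260 TPM (249.7 to 269.9), and CD74, the invariant chain of class II antigen presentation, at 173 TPM (168 to 179). CGNL1, a junction protein of epithelia, stood at 44.8 TPM. MAGT1, a magnesium transporter and glycosylation subunit, stood at 41.1 TPM. NRG4, a growth factor of the epidermal growth factor family, stood at 40.5 TPM, and CD47, a surface protein that inhibits engulfment by phagocytes, at 38.1 TPM. FLCN, a tumour suppressor of the human kidney, stood at 25 TPM. RNA-binding proteins were represented by SAMD4A at 26.7 TPM, MSI2 at 25.3 TPM, TIA1 at 24.6 TPM and TARDBP at 10.9 TPM. The lowest detected genes of this group were MYOF, a membrane repair protein, at 1.42 TPM, SSR2 at 1.23 TPM and SLC35E2B, with 3 reads, at 1.09 TPM. Their levels are those estimated for the listed non-coding transcript and cannot be read as levels of coding transcripts. No coding transcript was listed under the names of these genes. Of those with 1 transcript and at least 20 reads, 67.5% had counts that were not whole, so reads were divided with other transcripts. Whether reads of coding transcripts were counted here is unknown.

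Among the 2135 members typed lncRNA, 30 stood between 10 and 100 TPM and 2 above. The highest was LOC101752163, a single transcript of 2392 bases, at 145.6 TPM (141.6 to 149.7; 5055 reads). That is above 97.2% of coding genes. Its neighbours stood far lower: SFTPA1, a collectin gene, at 2.38 TPM and LOC423629 at 0.0825 TPM. LOC101751659, of 1289 bases, followed at 108 TPM (103 to 113; 1858 reads). A gene typed lncRNA under the symbol GRN stood at 68.9 TPM (64.6 to 73.5), SMLR1 at 52.6 TPM (48.7 to 56.7) and LOC107053322 at 52.5 TPM (49.96 to 55.2). Of the members typed lncRNA, 11 have a symbol other than a LOC number, GRN and SMLR1 among them. Their type is that of the gene table, and whether they encode a protein was not tested. The 30 highest members typed lncRNA held 49.7% of that group's TPM and ended at LOC768995 with 10.6 TPM, and 15 of the 30 had a single transcript.

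**Figure D2:**
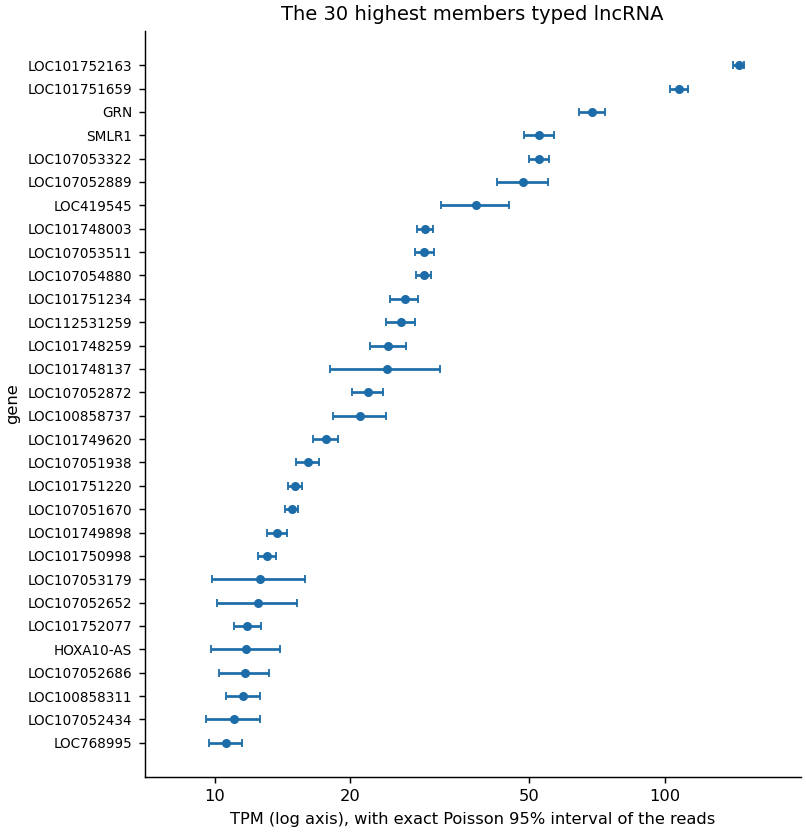
Level in TPM (horizontal log axis) of the 30 highest members typed lncRNA (1 per line), with exact Poisson 95% intervals of their reads as bars, which cover counting error only. Levels run from 145.6 TPM for LOC101752163 to 10.6 TPM for LOC768995, and the bars are widest for short genes with few reads, such as LOC101748137 with 52 reads.

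Some of these genes lie across coding genes of kidney function. Which genes overlap or neighbour each other was taken from the gene table, strand signs from the transcript names, and the pairs described here extend the naming rule to the 30 highest lncRNA-typed members, a choice made after their values were seen. Whether the library was stranded is not given in the sources used here. Without strand, reads from a gene and its antisense partner cannot be told apart where their exons overlap. LOC107054880 lies opposite HNF4A, a nuclear receptor of proximal tubule and liver. It stood at 29.1 TPM (28.1 to 30.3; 2720 reads) and HNF4A at 157 TPM (154 to 161). LOC101752077 stood at 11.8 TPM opposite PTH1R, the parathyroid hormone receptor, at 147 TPM. LOC101751220 stood at 15.1 TPM opposite LRPAP1, a chaperone of the megalin receptor family, at 117 TPM. LOC107052652 stood at 12.5 TPM (97 reads) opposite SLC6A18, a transporter of neutral amino acids, at 54.3 TPM.

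In other pairs the non-coding member was the higher one. LOC101751659, at 108 TPM, lies opposite TSPAN7, a tetraspanin, at 64.9 TPM (61.9 to 68.0). LOC107052889 stood at 48.3 TPM (42.4 to 54.9) opposite CEBPZ at 10.7 TPM and SULT6B1, a sulfotransferase, at 0.529 TPM. LOC101751234 stood at 26.4 TPM opposite GRIK2, a glutamate receptor subunit, at 2.29 TPM. Among the pairs reported here, 11 of the 30 genes overlapped a measured coding gene, in 14 pairs, 13 with opposite strand signs. The member was above its partner in 7 pairs and below it in 7. Among the former, R3HDML, which LOC107054880 also overlaps, and LOC107051671, overlapped by LOC107051670, stood at 0 TPM. The 30 were picked by high TPM, which favours the member. Over all 751 measured pairs it was above its partner in 84 (11.2%). In 117 of the 751 the member was detected, and in 30 of the 117 it was above its partner.

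**Figure D3:**
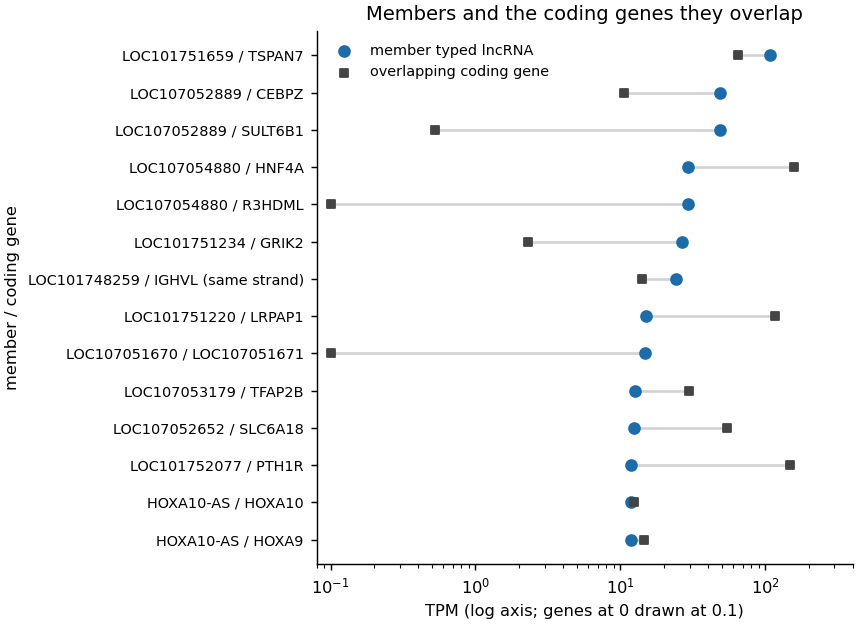
Levels in TPM (horizontal log axis) of the lncRNA-typed members among the 30 highest that overlap a measured coding gene (circles) and of that coding gene (squares), for the 14 pairs reported, 1 pair per line, with genes at 0 drawn at 0.1. The member is higher in 7 of 14 pairs, such as LOC107052889 over SULT6B1, and lower in 7, such as LOC107054880 under HNF4A. Members were picked by high TPM, which favours the member.

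Developmental regulators were among the partners too. HOXA10-AS, the only member whose symbol ends in -AS, stood at 11.8 TPM (9.81 to 14.0; 128 reads). It lies opposite HOXA10 at 12.3 TPM (11.5 to 13.2) and HOXA9 at 14.5 TPM (13.0 to 16.1), homeobox genes that pattern the body axis. The interval of HOXA10-AS overlaps those of both genes. Its flanking genes HOXA7 and HOXA11 stood at 27.0 and 6.43 TPM. LOC107053179 stood at 12.6 TPM (9.87 to 15.9; 72 reads) opposite TFAP2B, a transcription factor of the distal nephron in the mouse, at 29.6 TPM. Next to it lies PKHD1, whose human form is mutated in recessive polycystic kidney disease, at 79.4 TPM. On its other side TFAP2D stood at 0.00954 TPM with 1 read.

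Other high members flank regulators without overlap. The pairs named here were picked for the regulators, and the share of regulators among all flanking genes was not counted. LOC101750998 stood at 13.1 TPM beside POU3F3, a nephron transcription factor in the mouse, at 28.0 TPM. LOC100858311 stood at 11.6 TPM beside MAF, a leucine zipper transcription factor, at 48.5 TPM. LOC101749620 stood at 17.7 TPM beside GLI3, a transcription factor of Hedgehog signalling, at 7.74 TPM. LOC100858809, which ranks below the 30 highest and was picked with its value known, had a level of 10.3 TPM (324 reads) between MYC at 20.6 TPM and FAM49B at 14.4 TPM. LOC107051938 stood at 16.1 TPM between ITGA1, an integrin subunit, at 182 TPM and ISL1, a homeobox gene, at 0.0431 TPM with 1 read. Levels of neighbours on either side could thus differ widely at the same member.

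Across all lncRNA-typed members placed in the gene table (2128), 841 (39.5%) overlapped a coding gene. Of these, 130 (15.5%) were detected, against 138 of 1287 (10.7%) of those without overlap. In 751 overlapping pairs the coding partner was measured, 727 of them with opposite strand signs. The member was above its partner in 84 pairs (11.2%), and in 30 of the 117 pairs with a detected member. Among pairs with opposite signs, the partners of detected members had a median of 13.4 TPM (108 pairs) and those of undetected members 6.96 TPM (619 pairs).

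The nearest coding genes on either side showed a difference in the same direction where there was no overlap. In the 205 measured pairs of 129 detected members, the neighbour had a median of 14.4 TPM (interquartile range 1.64 to 36.9). In the 1699 pairs of undetected members it had a median of 5.60 TPM (0.652 to 19.4). On the log2(TPM + 1) scale the medians differed by 1.22. Neighbours with the same strand sign had medians of 18.5 and 4.98 TPM, and those with the opposite sign 11.9 and 6.24 TPM. Spearman's rho between a member and its neighbour was 0.173 over the 1904 pairs, given as a description. Pairs share a library, and both members and neighbours recur in pairs, some neighbours in both groups. The ranges overlapped widely, and in 63 of 205 pairs (30.7%) the detected member was above its neighbour.

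Detection varied less with length among members than among coding genes. Of members with a longest transcript of 300 to under 500 bases, 18.4% were detected, and in the classes above the share lay at 12.9%, 13.2%, 13.6%, 15.1% and, from 8000 bases on, 16.6%. Coding genes went from 40.5% in the shortest class to 72.2% at 2000 to under 4000 bases and 72.4% from 8000 bases on. The share of genes without a read fell with each class in both sets. It went from 65.6% to 15.4% in members and from 50% to 2.96% in coding genes. The median longest transcript was 2536 bases for members and 2835 bases for coding genes. The longest member, LOC112531897 with 113235 bases, had 22 reads and stood at 0.0123 TPM. The long LOC112532177, of 22250 bases and without an entry, had the fifth most reads, 4145, at 11.9 TPM.

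**Figure D4:**
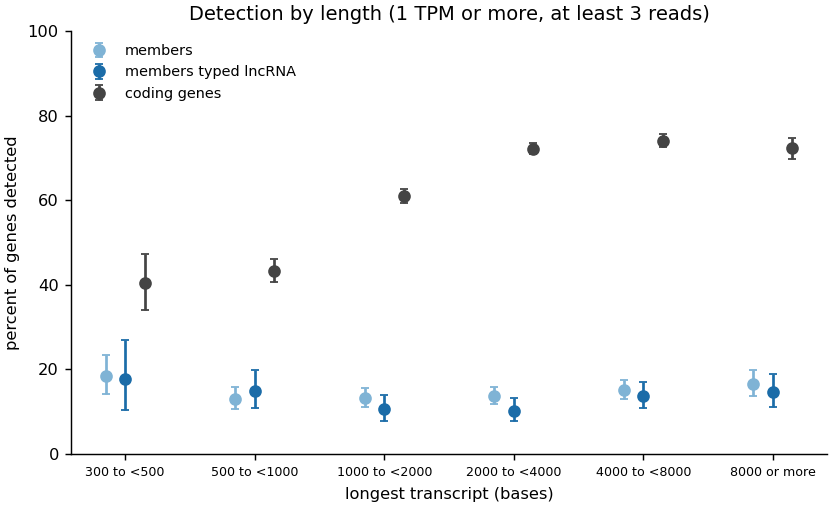
Percent of genes detected (vertical axis) in 6 classes of longest transcript length in bases (horizontal axis), for all members, members typed lncRNA and coding genes, with exact Clopper-Pearson 95% intervals over genes as bars. Members stay between 12.9% and 18.4% in every class, and coding genes lie higher in every class, from 40.5% to 74.1%.

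The genes nearest the 300-base limit were without reads. The 5 members just inside, of 300 to 301 bases, and the 5 genes just outside, of 297 to 299 bases, all had 0 reads. Of all members of 300 to under 500 bases 65.6% had no read, and of non-coding genes under 300 bases 92.4%. With 5 genes on each side, this shows nothing particular about the limit.

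The number of annotated transcripts moved with detection. Of 3546 members with 1 transcript, 12.8% were detected (11.7 to 14.0), and of 127 with 5 to 9 transcripts, 38.6% (30.1 to 47.6). With 10 or more, 24 of 61 were detected, 39.3% (27.1 to 52.7). Among coding genes the shares were 63.4%, 77.9% and 82.8%. Within members of 4000 to under 8000 bases the same classes had 12.2%, 37.5% and 36.8%, so the difference was also present at like length. The 5 members with most transcripts varied widely. LOC101749758 and LOC112532614, with 50 each, stood at 0.0605 and 0.258 TPM, and LOC101749404, with 39, at 0.0584 TPM. LOC101749388, with 31, stood at 3.88 TPM, and RNF212B, with 28, at 6.27 TPM.

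**Figure D5:**
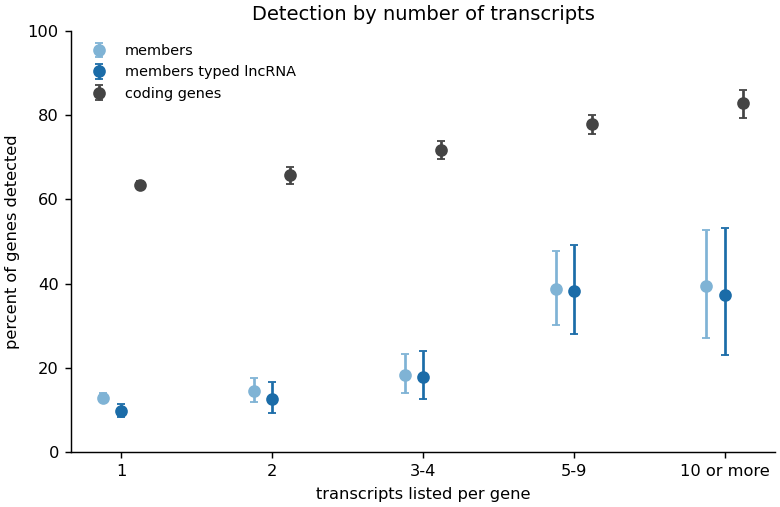
Percent of genes detected (vertical axis) by the number of transcripts listed for the gene (horizontal axis), for all members, members typed lncRNA and coding genes, with exact Clopper-Pearson 95% intervals over genes as bars. Members go from 12.8% with 1 transcript to 38.6% with 5 to 9, and coding genes from 63.4% to 77.9%.

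Where a member with several transcripts had reads, they often lay on 1 of them. Over all 782 such members the leading transcript held a median of 100% of the gene's TPM (95.9 to 100), with a median of 14 reads a gene, against 79.8% in coding genes, with a median of 279 reads. The order of the medians turned round with at least 20 reads, with intervals that overlap. In the 350 members of that depth the leading transcript held a median of 69.0% of the gene's TPM (66.1 to 74.4). In 4490 coding genes of the same kind it held 75.3% (74.1 to 76.2). Depth still differed, with a median of 84 reads in these members and 397 in these coding genes. At LOC107054880, opposite HNF4A, the leading one of 6 transcripts held 68.8%, at HOXA10-AS the leading one of 3 held 85.2%, and at LOC101748259 the leading one of 17 held 94.0%. LOC101748003 was more even: its leading one of 7 transcripts held 21.5% of 29.3 TPM. This gene lies beside MRPS6, a mitochondrial ribosomal protein, at 71.7 TPM, and KCNE2, a potassium channel subunit, at 2.06 TPM. RNF212B, typed lncRNA, had 28 transcripts, the leading one with 24.2% of 6.27 TPM. These shares rest on estimated reads that the software divides between transcripts sharing sequence.

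An estimated count that is not whole marks a gene whose reads were divided. Among genes with 1 transcript and at least 20 reads this was so for 28.6% of members, 19.3% of those typed lncRNA, 67.5% of those typed protein-coding and 57.7% of coding genes. Depth moved with these shares: the median reads of the 4 groups were 62, 50, 471 and 501, and its part in the difference was not tested.

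Few of the listed long non-coding RNAs were found by symbol. The lists were written with earlier results of these data known. Whether each listed gene exists in the chicken, under that symbol or another, was not examined. From a list of 24 regulators, among them MALAT1, NEAT1 and XIST, none was a member by that symbol, and of 6 structural and catalytic RNAs only TERC was. No symbol of a snoRNA host gene was a member. TERC, the RNA template of telomerase, had 0 reads, which allows up to 0.710 TPM at 3 reads. TERT, the catalytic subunit of telomerase, which flanks the lncRNA gene LOC107052652, stood at 9.06 TPM (8.49 to 9.66; 947 reads). Whether the library was selected for polyadenylated RNA is not given in the sources used here. MIR155HG, the host of a microRNA of immune cells, had 1 read (0.0287 TPM; 0.000727 to 0.160). DLX6OS1, known in the mouse as an antisense RNA of a homeobox locus, was not on the lists and was added by its symbol. It had 0 reads in 2 transcripts, which allows up to 0.361 TPM at 3 reads on the shorter of them.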

How the data were processed

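The 1 kidney RNA-seq library was made from RNA extracted with a mirVana kit, per the labels' protocols. Transcript abundance was estimated with Salmon on galGal6, per the submitters' processing notes. For its version, library type setting and annotation release, nothing is given in the sources used here. The authors' TPM values sum to 1000000 across the 79570 rows. The deposited estimated counts are reads that the software divides between similar transcripts, and 27.3% of them were not whole within 0.0015. Lengths are as deposited.

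The gene symbol and strand sign were read from the transcript names, and TPM and reads were summed per gene. Members, gene lists and the naming rule were chosen with earlier results of these data known. The rule named the 20 members with highest TPM, the 10 with most reads, detected members with a symbol, listed lncRNAs, the 5 longest, the 5 with most transcripts, those at the length limit, and coding neighbours of the 20. Of the detected members with a symbol, the text gives a part. Members were matched to the GRCg7b RefSeq gene table by accession (1384), gene ID (912), symbol (65) or synonym (2). Since its build differs, no coordinates are given. The overlapping pairs of 1 lncRNA-typed member are not reported here.

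Intervals are exact Poisson for TPM, exact Clopper-Pearson for shares and order-statistic for medians. The interval of the difference between detected shares combines the Clopper-Pearson limits of both shares by root sum of squares. Intervals of TPM cover counting error only, and PCR copies could not be recognised. No p-value was computed, as there is 1 library. The Poisson and median intervals, the member rule and the summing step were tested on simulated data. The Clopper-Pearson interval and that of the difference were not. Tools were Python 3.11.15, pandas 2.3.3, numpy 2.4.6, scipy 1.17.1 and matplotlib 3.10.9.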

Additional observations from a re-analysis of the deposited data

Results flagged for a closer look

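Reads also lay on non-coding transcripts outside the members. The 1016 non-coding genes with a longest transcript under 300 bases held 53103.6 reads, 0.243% of all reads but 22.1% of TPM, since short effective lengths raise TPM. Non-coding transcripts of coding genes held 110399 reads. These came from 920 coding genes, and in 767 of them with at least 20 reads the non-coding transcripts held a median of 9.92% of the gene's TPM and in 106 (13.8%) over 50%. Unnamed assembled transcripts, 34512 in all, held 25.9% of reads. Rows that were neither named genes nor such transcripts held reads too and were not analysed. No control library exists for these signals, and their causes were not tested.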

How the results depend on the processing

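No paired analysis was possible because the results come from 1 library and no test. Of 57 alternative values, 22 stayed within the interval of the value reported, and 35 moved beyond it. Of the 18 that belong to the detection difference and the neighbour difference, 0 changed direction. A comparison within genes that have a symbol other than a LOC number was not among the 18. There 75.2% of members (66.0 to 83.0) and 74.2% of coding genes (73.4 to 74.9) were detected, so members were not the lower set. The order by the leading transcript's share was not among the 18 either. Its medians turned round with at least 20 reads, with intervals that overlap. The share of members detected (14.4%) was 21.1% at 0.5 TPM, 4.77% at 5 TPM, 18.7% with TPM rescaled over transcripts of 300 bases or more, 18.8% with annotated lengths, 13.4% by the most abundant transcript, 12.6% for lncRNA-typed members, 13.0% for LOC members, 12.8% for members with 1 transcript and 12.8% for members typed lncRNA or without an entry. The median (0.0359 TPM) was 0.0481 from 1000 bases on, 0.0555 rescaled, 0.0606 with annotated lengths and 0.0212 with 1 transcript. The coding minus member difference (52.4 points) was 50.4 at 0.5 TPM, 44.9 at 5 TPM, 55.4 from 1000 bases on, 54.2 for lncRNA-typed members, 53.9 for LOC members, 54.0 for members typed lncRNA or without an entry, 50.6 with 1 transcript on both sides and 11.1 against LOC coding genes. Comparisons over members typed lncRNA or without an entry, without the rRNA, against LOC coding genes and with 1 transcript on both sides were chosen after seeing the data. The leading transcript's median share was 69.0% with at least 20 reads and 100% otherwise. The share of the 10 leading members (20.6%) ranged from 14.8% to 38.0%. The neighbour difference ranged from 0.831 to 1.70 on the log2(TPM + 1) scale. The promoter GC comparison and the motif search were not run, since no promoter sequence was used here. The causes of these changes were not tested. With 1 library, spread between birds is unknown, and reads on unnamed transcripts limit what a low level shows.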
